A study of Mus musculus with 6 samples.

Results

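The 10 genes described here mark the oligodendrocyte lineage from its precursor cells to newly formed oligodendrocytes: Gpr17, Pdgfra, Cspg4, Olig1, Olig2, Sox10, Sox8, Neu4, Lhfpl3 and Bcas1. They were taken as a list of gene symbols, with RefSeq transcript rows of the same symbol summed, and all 10 were found among the 24553 genes and unmatched rows of the table. RNA came from snap-frozen cortex of male C57BL/6J mice that were 15 weeks old and 14 days past a stroke. The 3 libraries of the SCFA group came from mice given short-chain fatty acids (SCFA), which gut bacteria release when they ferment fibre, in the drinking water. The 3 control libraries came from mice given a salt-matched control. Both treatments began when mice were 6 to 8 weeks old and lasted 4 weeks, and mice of both groups also drank Vancomycin, Ampicillin, Neomycin and Metronidazol in water sweetened with 5% sucrose. The stroke method, hemisphere and distance to the lesion were not given in the sources used here.

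Oligodendrocyte precursor cells are dividing glia spread through the grey and white matter, which give rise to the oligodendrocytes that wrap axons in myelin. They depend on platelet-derived growth factor for growth, while the Olig and SoxE transcription factors set the lineage and later switch on myelin genes. After stroke, precursors near a lesion are known to divide, and part of them go on to make new oligodendrocytes. In bulk tissue, fewer cells of a type and less RNA per cell cannot be told apart.

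Total counts ran from 9275252 to 13862756 in SCFA libraries and from 10393480 to 11397967 in control libraries. Of 11969 genes tested, 1 was higher and 9 were lower with SCFA (quasi-likelihood test of edgeR at an adjusted p under 0.05). In each group 1 library stood apart, SCFA 2 and control 2. On the first principal component of log2 CPM the score of control 2 was 109.2, and those of the other 5 libraries ran from -25.77 to -17.74. On the second, the score of SCFA 2 was -51.59, and the others ran from -9.54 to 30.7. Control 2 also had counts on the fewest rows, 13600 against 15988 to 16941 in the other libraries. A row without a gene symbol took 55.3% of the counts in control 2 and 35.0% in SCFA 2, the highest and the lowest share of any library. The part of these shares in the values of the 10 genes was not tested. Of 45 tested genes among the 10 and 3 further lists of the lineage, 6 had a count of 0 in control 2 (13.3%) and 0 genes in each other library. Over all genes tested, the share at 0 was 6.09% in control 2 and 0.351% to 0.835% in the other libraries. Of 10 neuronal markers, 9 were tested. Slc17a7, the vesicular glutamate transporter of cortical excitatory neurons, was at 864 to 966 counts per 1000000 (CPM) in SCFA libraries and 663 to 886 CPM in control libraries. In contrast, Rbfox3, the gene of the neuronal nuclear protein NeuN, had 0 to 6 counts in SCFA libraries and 0 to 10 in control libraries, which goes against its known expression in cortex, and Syt1, a synaptic vesicle gene, had 0.819 to 6.12 CPM in SCFA libraries and 1.6 to 3.8 CPM in control libraries.

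Of the 10 genes, 8 had enough counts for the test, and 0 of these passed it in either direction, where 0.0835% of all genes tested were called, 0.00835% as higher and 0.0752% as lower (edgeR). At an unadjusted p under 0.05, 2 of the 8 were higher, Gpr17 and Sox10, and 0 were lower, where 5.76% of all genes tested had such a p, 2.97% as higher and 2.79% as lower. DESeq2 and limma-voom likewise called 0 of the 8, each with 2 higher and 0 lower at an unadjusted p under 0.05. This count of 2 fell to 0 without SCFA 2, without SCFA 3 and without SCFA 2 and control 2 together, and to 1 without control 1 and without control 2. All 8 had a log2 fold change above 0, as had 50.9% of all genes tested, and their median was 0.35 against 0.0085 for all genes. Without SCFA 2 and control 2 together, 6 of the 8 lay above 0 and the median was 0.32. The genes that could not be tested were Neu4 and Lhfpl3. Pdgfra passed the filter on low counts through SCFA 1, SCFA 2 and control 3, so its entry into the test was not independent of the groups. CPM values throughout are scaled by the TMM factors, standard errors (SE) are those of the log2 fold change, and adjusted p-values are Benjamini-Hochberg values over all 11969 genes.

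**Figure D1:**
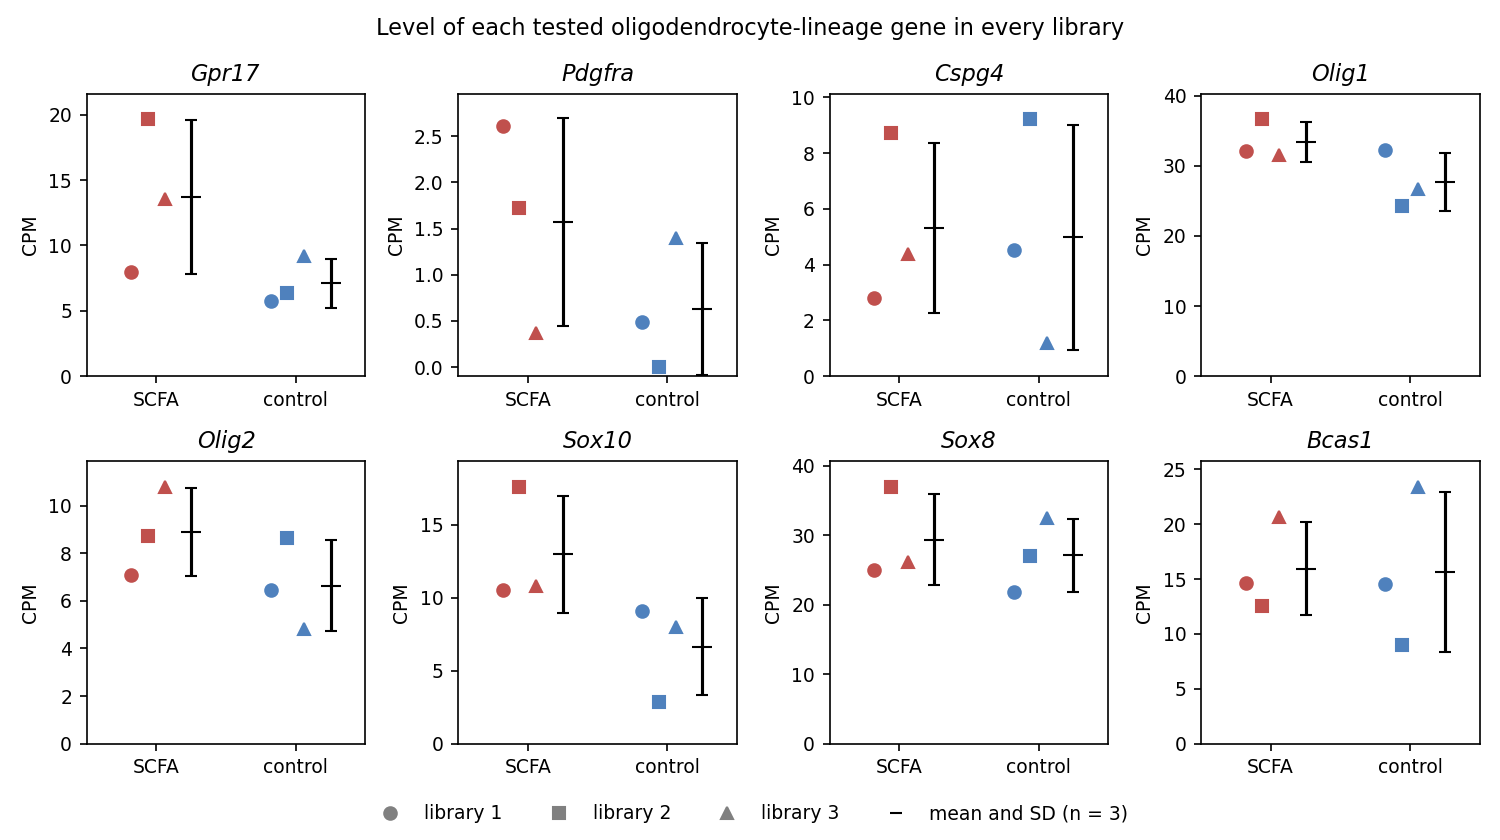
CPM of the 8 tested genes on the vertical axis, with 1 panel per gene, SCFA libraries in red and control libraries in blue. Symbols stand for libraries 1 to 3 of each group, which are not paired by number, and the bars for mean and SD (n = 3). Sox10 is the gene whose groups do not overlap.

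Among the receptors, Gpr17 was highest in SCFA 2. Gpr17 encodes a G protein-coupled receptor of committed precursors that is switched off as they mature, and lies on chromosome 18 from 31942999 to 31949890 (GRCm38). Its counts were 76, 286 and 182 in SCFA 1 to 3, against 71, 55 and 92 in controls 1 to 3. In CPM these were 7.94, 19.7 and 13.5 with SCFA and 5.75, 6.34 and 9.21 in controls. SCFA 2 and SCFA 3 lay above every control, whereas SCFA 1 lay below control 3, so the groups overlapped. The means were 13.7 ± 5.86 CPM with SCFA and 7.10 ± 1.85 CPM in controls (SD, n = 3 each), which gave a log2 fold change of 0.96 (SE 0.38, edgeR adjusted p = 0.864, unadjusted p = 0.0264). Without SCFA 2 the log2 fold change was 0.61, and without SCFA 2 and control 2 it was 0.53. The exons of Gpr17 share 188 bases with those of Lims2 on the opposite strand, and without a stated strand setting reads there cannot be assigned. Lims2 itself had 13, 60 and 57 counts in SCFA 1 to 3 and 31, 25 and 56 in controls 1 to 3. The same limit holds for Sox8, Bcas1, Olig1, Pdgfra and Lhfpl3. Their largest exon overlaps with a gene on the opposite strand were 329, 440, 157, 456 and 567 bases.

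Pdgfra encodes the alpha receptor for platelet-derived growth factor, the defining surface receptor of the precursors, on chromosome 5 from 75151322 to 75198206. Its summed counts were 25, 25 and 5 in SCFA 1 to 3, against 6, 0 and 14 in controls 1 to 3. SCFA 1 and SCFA 2 were the highest libraries, SCFA 3 lay below 2 of the 3 controls, and control 2 had none, at a depth where 3 counts stand for 0.346 CPM. The log2 fold change of 1.28 had an SE of 1.21 (edgeR adjusted p = 0.924). Over the summed counts, 55 with SCFA and 20 in controls, the CPM ratio was 2.27 with an exact 95% binomial interval of 1.34 to 4.00, which covers counting error only. Pdgfra is also expressed by fibroblasts. The summed level of 10 fibroblast genes was 285 to 409 CPM in SCFA libraries and 277 to 1259 CPM in control libraries, and the part of these cells in the Pdgfra values was not tested. The highest value, in control 3, came mostly from Col1a1 and Col1a2, with 710 and 411 CPM there, whereas Dcn was at its lowest in that library, at 1.3 CPM.

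Cspg4 encodes the NG2 proteoglycan, a surface protein of precursors and of pericytes, on chromosome 9 from 56865104 to 56899870. Its counts were 27, 127 and 59 in SCFA 1 to 3, against 56, 80 and 12 in controls 1 to 3. Levels were 2.82, 8.73 and 4.39 CPM with SCFA and 4.53, 9.22 and 1.2 CPM in controls. The groups covered nearly the same range, and both the highest and the lowest library were controls. The log2 fold change was 0.11 (SE 0.65, edgeR adjusted p = 0.989). It turned to -0.45 without SCFA 2 and to -0.35 without control 3, and was 0.88 without control 2. The summed level of 10 pericyte genes was 157 to 171 CPM in SCFA libraries and 160 to 170 CPM in control libraries, although Pdgfrb, Abcc9 and Myh11 stood at 0 in all 6 libraries.

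Of the transcription factors, Sox10 was the gene whose groups did not overlap, 1 of 8 genes in that direction where 6.42% of all genes tested had such groups. In the other direction there were 0 of 8, against 5.74% of all genes tested. Sox10 encodes a SoxE factor that is needed for the terminal differentiation of oligodendrocytes and drives myelin genes, and it lies on chromosome 15 from 79154913 to 79164490. Its counts were 101, 256 and 145 in SCFA 1 to 3, against 112, 25 and 80 in controls 1 to 3. In CPM, which allows for depth, it had 10.6, 17.6 and 10.8 with SCFA and 9.07, 2.88 and 8.01 in controls. SCFA 1 and SCFA 3 lay just above control 1, and the distance between the groups came mostly from a high SCFA 2 and a low control 2. The means were 13.0 ± 4.00 CPM with SCFA and 6.65 ± 3.31 CPM in controls (SD, n = 3 each), which gave a log2 fold change of 0.96 (SE 0.43, edgeR adjusted p = 0.864, unadjusted p = 0.0419). The log2 fold change was 0.61 without control 2, 0.68 without SCFA 2 and 0.32 without both. Schwann cells, the myelinating glia of nerves, also express Sox10. Of 10 Schwann genes, Ncmap and Pmp2 stood at 0 in all 6 libraries, and the list summed to 105 to 121 CPM in SCFA libraries and 102 to 115 CPM in control libraries.

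Sox8 encodes a second SoxE factor, which overlaps in function with Sox10, on chromosome 17 from 25565893 to 25570686. Its counts were 239, 538 and 352 in SCFA 1 to 3, against 270, 234 and 324 in controls 1 to 3. Levels were 25.0, 37.0 and 26.2 CPM with SCFA and 21.9, 27.0 and 32.4 CPM in controls. The groups overlapped, with SCFA 1 and SCFA 3 inside the range of the controls. The log2 fold change was 0.12 (SE 0.24, edgeR adjusted p = 0.961), and it was -0.074 without SCFA 2 and -0.0095 without control 1. Per Sox8 count there were 0.423, 0.476 and 0.412 Sox10 counts in SCFA 1 to 3, against 0.415, 0.107 and 0.247 in controls 1 to 3. This ratio does not depend on how libraries are scaled, and control 1 lay within the SCFA range.

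Olig1 and Olig2 encode basic helix-loop-helix factors. Olig2 sets the lineage and is kept in all its stages, and Olig1 acts in maturation and in repair of myelin. The genes are neighbours on chromosome 16, Olig2 from 91225550 to 91228677 and Olig1 from 91269769 to 91271939, with 41091 bases between them. Olig1 had 307, 533 and 423 counts in SCFA 1 to 3, against 398, 210 and 267 in controls 1 to 3. Its levels were 32.1, 36.6 and 31.5 CPM with SCFA and 32.2, 24.2 and 26.7 CPM in controls. Only control 1 reached the range of the SCFA libraries, and the replicates of the SCFA group spread least of the 8 genes, with a coefficient of variation of 8.46%. The means were 33.4 ± 2.83 CPM with SCFA and 27.7 ± 4.10 CPM in controls (SD, n = 3 each), which gave a log2 fold change of 0.27 (SE 0.21, edgeR adjusted p = 0.903). Without SCFA 2 and control 2 it was 0.11. Olig2 had 68, 127 and 145 counts in SCFA 1 to 3, against 80, 75 and 48 in controls 1 to 3. Its levels were 7.10, 8.73 and 10.8 CPM with SCFA and 6.48, 8.64 and 4.81 CPM in controls, which overlapped, with a log2 fold change of 0.42 (SE 0.38, edgeR adjusted p = 0.917). It was 0.24 without control 3, 0.26 without SCFA 3 and 0.67 without SCFA 2 and control 2. Unlike Sox10, Olig2 was not low in control 2. Per Olig1 count there were 0.222, 0.238 and 0.343 Olig2 counts in SCFA 1 to 3, against 0.201, 0.357 and 0.18 in controls 1 to 3, so the neighbours did not keep 1 ratio within either group.

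Promoter sequences in RefSeq's GRCm38.p6 annotation were matched for 6 of the 10 genes (Pdgfra, Cspg4, Olig2, Neu4, Lhfpl3 and Sox8). The 250 bases before the start were searched on both strands for ACAAAG and ACAATG, forms of the site that Sox proteins bind, and for CAGATG and CAGCTG, forms of the E-box that basic helix-loop-helix proteins bind. ACAAAG was in 0 of the 6, where 16.5% of 32851 promoters hold it, and ACAATG was in Olig2 alone, where 10.7% hold it. CAGATG was in Pdgfra alone (14.4% of all promoters) and CAGCTG in Lhfpl3 alone (13.0%), which has it at 2 places that do not overlap each other. CAGCTG reads the same on both strands. The promoters of Olig2, Pdgfra and Sox8 are shown as the growth factor receptor of the precursors and 1 gene of each factor family, 5′ to 3′ on the strand of the gene, with motif matches in capitals.
Olig2 (chr16:91225300-91225549, plus strand): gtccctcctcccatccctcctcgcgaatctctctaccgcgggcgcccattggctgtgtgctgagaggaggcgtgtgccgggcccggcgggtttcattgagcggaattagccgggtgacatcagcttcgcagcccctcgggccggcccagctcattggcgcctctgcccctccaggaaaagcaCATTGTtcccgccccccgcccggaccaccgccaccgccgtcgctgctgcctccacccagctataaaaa
Pdgfra (chr5:75152001-75152250, plus strand): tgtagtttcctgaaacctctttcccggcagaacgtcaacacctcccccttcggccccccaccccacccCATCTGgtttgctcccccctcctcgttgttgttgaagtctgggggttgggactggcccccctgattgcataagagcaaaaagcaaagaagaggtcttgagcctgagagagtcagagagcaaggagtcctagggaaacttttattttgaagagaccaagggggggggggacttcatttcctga
Sox8 (chr17:25570687-25570936, minus strand): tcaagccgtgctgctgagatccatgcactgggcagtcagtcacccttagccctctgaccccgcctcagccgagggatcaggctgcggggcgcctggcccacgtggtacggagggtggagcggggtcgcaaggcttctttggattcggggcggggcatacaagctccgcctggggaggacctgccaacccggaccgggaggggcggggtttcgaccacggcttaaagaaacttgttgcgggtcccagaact
The match in Olig2 reads CATTGT, the reverse complement of ACAATG, from 68 bases before the start, and that in Pdgfra reads CATCTG, the reverse complement of CAGATG, from 182 bases before it. Sox8 has no match in this window. The Pdgfra window lies before the transcript start used by RefSeq's table, inside the outer bounds of the gene given above. The bases G and C made up 66.8% of the Olig2 sequence, 65.6% of that of Sox8 and 54.4% of that of Pdgfra, with 22, 18 and 4 CG pairs, against medians of 52.4% and 6 pairs over all promoters.

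Bcas1 marks early oligodendrocytes that are about to myelinate or have just begun, and lies on chromosome 2 from 170343973 to 170427911. It had 140, 182 and 278 counts in SCFA 1 to 3, against 180, 78 and 234 in controls 1 to 3. Levels were 14.6, 12.5 and 20.7 CPM with SCFA and 14.6, 8.99 and 23.4 CPM in controls. Controls held both the highest and the lowest library, and SCFA 2, where 4 of the 8 genes peaked, was the lowest of the SCFA group. The log2 fold change was 0.024 (SE 0.35, edgeR adjusted p = 0.997), the smallest of the 8. It lay between -0.25 without control 2 and 0.43 without control 3. All its counts fell on 1 of 2 transcript rows. Per Bcas1 count there were 0.543, 1.57 and 0.655 Gpr17 counts in SCFA 1 to 3, against 0.394, 0.705 and 0.393 in controls 1 to 3. The groups overlapped in this ratio through control 2.

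Neu4 encodes a sialidase, an enzyme that removes sialic acid from sugar chains, on chromosome 1 from 94020493 to 94028334. It had 6 counts in SCFA 2, 6 in control 3 and 0 in the other 4 libraries. Lhfpl3 encodes a membrane protein of the Lhfpl family, on chromosome 5 from 22746054 to 23275597. It had 3, 0 and 3 counts in SCFA 1 to 3, against 2, 20 and 3 in controls 1 to 3. Of its 31 counts, 64.5% came from control 2 alone, the library in which Pdgfra had none. Both genes fell under the filter on low counts and were not tested. Each has 2 transcript rows, of which 1 was at 0 in all libraries. How reads shared by isoforms were counted is unknown, so low counts of these genes were not read as low expression.

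**Figure D2:**
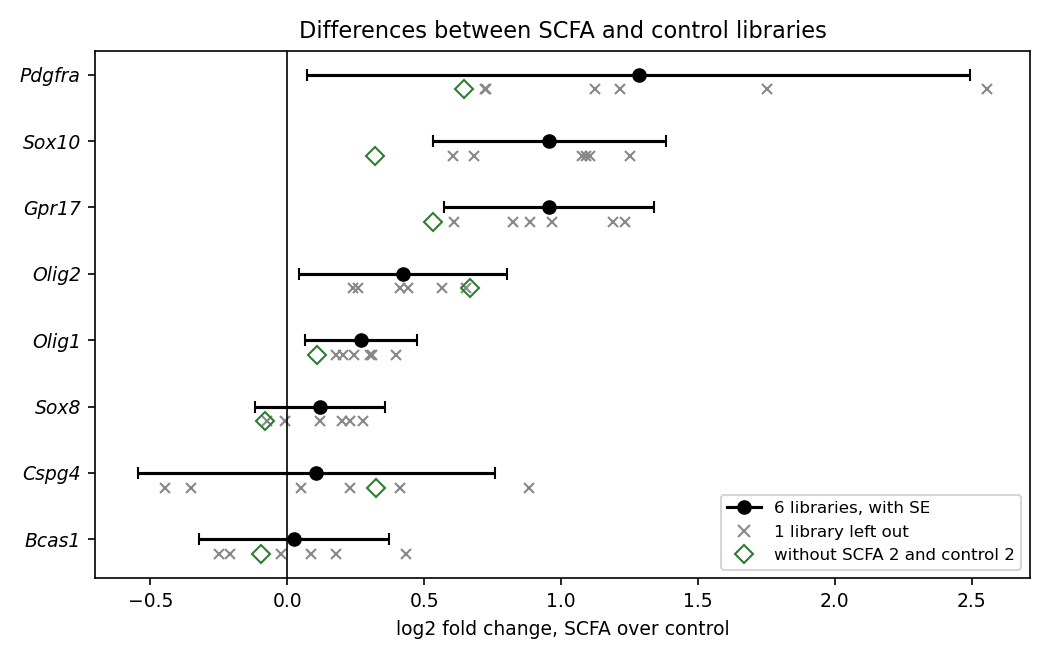
Log2 fold change of SCFA over control on the horizontal axis for the 8 tested genes, where black points and bars give the edgeR value from 6 libraries and its SE. Grey crosses leave out 1 library each and green diamonds leave out SCFA 2 and control 2; Cspg4, Sox8 and Bcas1 have values on both sides of 0.

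Levels can be compared after division by transcript length (of the paired GENCODE M21 transcript) between the 6 genes with 1 transcript row each. Bcas1, Lhfpl3, Pdgfra and Neu4 have 2 rows, and reads shared by their isoforms may not have been counted, so their places below are those of the deposited counts and not of their expression. On this scale of CPM per kilobase, Olig1 was the highest with 15.4 ± 1.31 in SCFA and 12.8 ± 1.89 in control libraries (SD, n = 3 each). Sox8 followed with 9.80 ± 2.20 in SCFA and 9.03 ± 1.76 in control libraries, and it lay below Olig1 and above Bcas1 in 6 of 6 libraries. Bcas1 had 5.47 ± 1.46 in SCFA and 5.37 ± 2.5 in control libraries. It lay above Sox10 in 5 of 6 libraries, where Sox10 measured 4.79 ± 1.48 in SCFA and 2.45 ± 1.22 in control libraries. Sox10 lay above Olig2 in 4 of 6, and the pair did not differ beyond its spread. Olig2 measured 3.51 ± 0.73 in SCFA and 2.63 ± 0.76 in control libraries, above Gpr17 in 5 of 6. Gpr17 measured 2.64 ± 1.13 in SCFA and 1.37 ± 0.36 in control libraries, and Cspg4 0.65 ± 0.38 in SCFA and 0.61 ± 0.50 in control libraries, below Gpr17 in 6 of 6. The counts of Lhfpl3, Pdgfra and Neu4 gave 0 to 0.74 CPM per kilobase in any library, with no order among them beyond their spread. Pdgfra lay above Cspg4 in SCFA 1 and control 3, and Neu4 lay above Cspg4 in control 3.

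Over the libraries, the 8 genes did not share 1 pattern. Gpr17, Sox10, Olig1 and Sox8 were highest in SCFA 2, Pdgfra in SCFA 1, Olig2 in SCFA 3, Cspg4 in control 2 and Bcas1 in control 3. The lowest library was control 2 for Sox10, Pdgfra, Olig1 and Bcas1, control 1 for Gpr17 and Sox8, and control 3 for Cspg4 and Olig2. How often each library is the highest or lowest over all genes tested was not counted. These places were therefore not read as an effect of SCFA. Likeness was measured as the mean absolute difference of log2 CPM, centred on the mean of each gene over the 6 libraries. By this measure Olig1 was the nearest of the 8 to Sox8, Olig2, Sox10 and Bcas1, and its own nearest was Sox8, at 0.27. Pdgfra stood farthest from the rest, at 0.78 from Sox10. The genes outside the list nearest to the mean pattern of the 8 were Dbp at 0.043, Lzts1 at 0.046, Ubb-ps at 0.055, Pomk at 0.065 and Bcan at 0.066, where the median distance was 0.34 over the 7098 genes that averaged 3 log2 CPM or more. Dbp, a transcription factor gene driven by the circadian clock, had 37.4, 51.8 and 40.8 CPM in SCFA 1 to 3, against 28.4, 23.3 and 30.7 CPM in controls 1 to 3. Bcan, the gene of the matrix proteoglycan brevican, had 33.7, 54.5 and 39.7 CPM in SCFA 1 to 3, against 34.3, 25.4 and 33.0 CPM in controls 1 to 3. That mean pattern was highest in SCFA 2 (0.60) and lowest in control 2 (-0.53), the libraries that also stood apart over all genes.

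**Figure D3:**
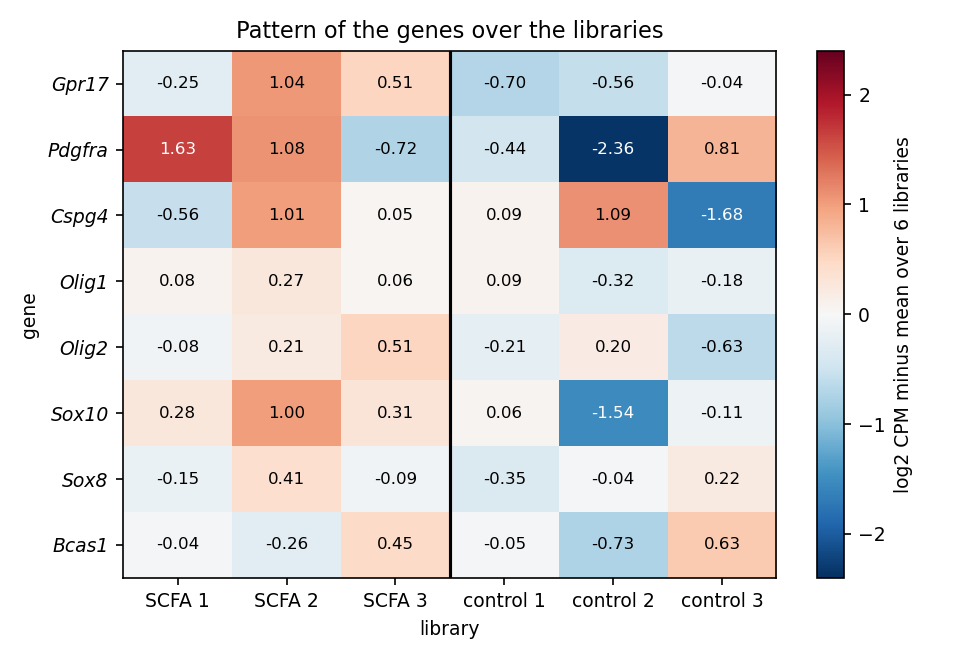
Log2 CPM of the 8 tested genes (rows) in the 6 libraries (columns, SCFA left of the line and control right of it), minus the mean of each gene over the libraries. Red is above and blue below that mean; Sox10 ranges from 1.0 in SCFA 2 to -1.54 in control 2.

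The wider lineage was described with lists of 18 other precursor genes, 15 genes of committed precursors and newly formed oligodendrocytes, and 20 genes of myelinating oligodendrocytes. Of these, 13, 9 and 15 were tested, and 0 passed in either direction (edgeR). At an unadjusted p under 0.05 there were 1, 0 and 1 higher and 0 lower in each list, against 2.97% and 2.79% of all genes. DESeq2 and limma-voom called 0 as well. The median log2 fold changes were 0.35 for the other precursor genes, 0.36 for the newly formed stage and 0.13 for the myelinating stage. Without SCFA 2 and control 2 these medians were 0.011, 0.083 and -0.14.

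Ptprz1, a receptor phosphatase gene of precursors and astrocytes, had 42.7, 70.2 and 45.3 CPM in SCFA 1 to 3, against 38.9, 29.3 and 34.8 CPM in controls 1 to 3. Each SCFA library lay above each control for Ptprz1, which held for 1 of the 13 tested genes of its list. Over all genes tested this share was 6.42%. The log2 fold change of Ptprz1 was 0.62 (SE 0.22, edgeR adjusted p = 0.864). Megf11, a transmembrane receptor gene, had a log2 fold change of -0.60 (SE 0.31) and Xylt1, which starts the sugar chains of proteoglycans, one of 0.27 (SE 0.23). In the newly formed stage, Zfp488, a transcription factor gene of differentiating oligodendrocytes, had 34, 52 and 50 counts in SCFA 1 to 3, against 24, 1 and 16 in controls 1 to 3. Its log2 fold change was 1.54 (SE 0.84, edgeR adjusted p = 0.889), and those of the scaffold gene Cnksr3 and the small GTPase gene Rras2 were 1.30 (SE 0.86) and -0.59 (SE 0.35). Cnksr3 had 0 counts in control 2 and 32 to 75 in the other libraries.

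Trf, the transferrin gene, which in brain is expressed mainly by oligodendrocytes, was the gene of the myelinating list with the smallest p. It had 72.6, 145 and 102 CPM in SCFA 1 to 3, against 74.6, 53.5 and 64.5 CPM in controls 1 to 3. The log2 fold change was 0.73 (SE 0.23, edgeR adjusted p = 0.864), and SCFA 1 lay below control 1. Aspa, an enzyme gene of acetylaspartate breakdown, and Mobp, a myelin protein gene, had log2 fold changes of -0.56 (SE 0.35) and -0.49 (SE 0.32). Apod and Klk6 stood at 0 in all 6 libraries and were not read as absent. The summed CPM of the 10 genes, divided by that of the myelinating list, was 0.296, 0.301 and 0.306 in SCFA 1 to 3, against 0.225, 0.278 and 0.332 in controls 1 to 3. The SCFA libraries lay inside the range of the controls.

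**Figure D4:**
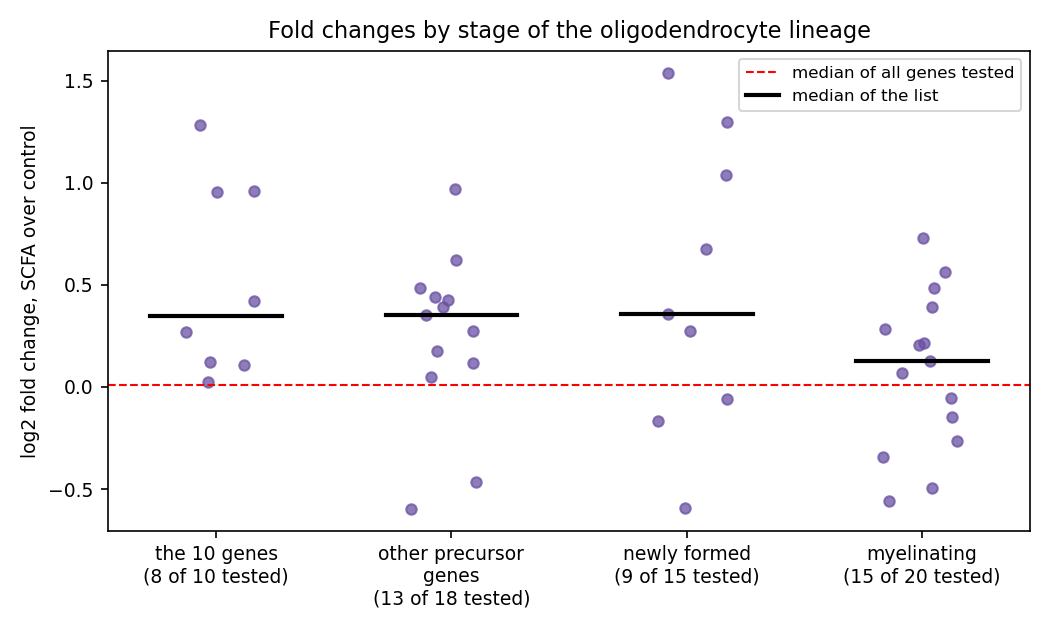
Log2 fold change of SCFA over control on the vertical axis for each tested gene of the 10 genes and of 3 further lists of the lineage. Black lines are list medians (0.35, 0.35, 0.36 and 0.13), and the dashed line is the median of all genes tested (0.0085).

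Of 23 genes for signals that act on precursors, 19 were tested and 0 passed (edgeR), with 4 higher and 0 lower at an unadjusted p under 0.05, against 2.97% and 2.79% of all genes tested. These were Dll1, a Notch ligand gene, Id4, an inhibitor of basic helix-loop-helix factors that holds back differentiation, and Lrp4 and Apcdd1, genes of Wnt pathway modulators. Dll1 had 30, 101 and 24 counts in SCFA 1 to 3, against 10, 4 and 14 in controls 1 to 3, a log2 fold change of 2.13 (SE 0.80, edgeR adjusted p = 0.864). Id4 had 48.8, 38.3 and 45.4 CPM in SCFA 1 to 3, against 33.9, 20.2 and 31.3 CPM in controls 1 to 3, a log2 fold change of 0.63 (SE 0.23). Lrp4 and Apcdd1 had log2 fold changes of 0.45 (SE 0.18) and 0.84 (SE 0.36), both with an edgeR adjusted p of 0.864. In these 4 and in Lingo1, 5 of the 19 genes, each SCFA library lay above each control, where 6.42% of all genes tested had such groups. Lingo1, a gene whose protein restrains differentiation, had a log2 fold change of 0.35. Pdgfa, the ligand of the Pdgfra receptor, had 228, 169 and 253 counts in SCFA 1 to 3, against 211, 176 and 242 in controls 1 to 3, a log2 fold change of -0.19 (SE 0.29).

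Of 16 transcription and chromatin factor genes that work with the Olig and SoxE proteins, 12 were tested and 0 passed (edgeR), with 0 higher and 1 lower at an unadjusted p under 0.05, against 2.97% and 2.79% of all genes. That gene was Sox5, a SoxD factor that restrains SoxE activity in the lineage. It had 3, 9 and 6 counts in SCFA 1 to 3, against 27, 52 and 11 in controls 1 to 3, a log2 fold change of -2.70 (SE 0.94, edgeR adjusted p = 0.864). Tcf4, the gene of an E-protein partner of Olig2, had a log2 fold change of -0.78 (SE 0.42), and the zinc finger gene Sall3 one of 0.87 (SE 0.47). Each SCFA library lay below each control for Sox5 and Tcf4, 2 of the 12 tested genes, against 5.74% of all genes. For Prrx1 and Yy1, also 2 of the 12, each SCFA library lay above each control, against 6.42% of all genes. Of 12 genes of dividing cells, 6 were tested and 0 passed (edgeR), with 1 higher and 0 lower at an unadjusted p under 0.05, against 2.97% and 2.79% of all genes. Mki67, a marker of dividing cells of any type, had 34, 67 and 65 counts in SCFA 1 to 3, against 26, 8 and 14 in controls 1 to 3. Its log2 fold change was 1.54 (SE 0.63, edgeR adjusted p = 0.864), and those of the topoisomerase gene Top2a and the replication gene Mcm3 were 2.37 (SE 1.25) and 1.48 (SE 0.82). Top2a had 5, 50 and 21 counts in SCFA 1 to 3, against 11, 1 and 0 in controls 1 to 3. Mcm3 had 42, 27 and 55 counts, against 4, 12 and 20. In CPM the groups overlapped for Top2a and for Mcm3. The other 3 tested, Mcm2, Ccna2 and Pcna, had log2 fold changes of 0.36, -0.091 and -0.29.

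Markers of other glia were also highest in SCFA 2. The summed level of 10 astrocyte genes was 1115 to 1593 CPM in SCFA libraries and 797 to 952 CPM in control libraries, and that of 10 microglia genes 501 to 803 CPM in SCFA libraries and 299 to 440 CPM in control libraries. Both sums were lowest in control 1, whereas control 2 was the lowest library for the 10 genes. Of these lists, 8 and 9 genes were tested and 0 passed (edgeR), with 4 and 6 higher and 0 lower at an unadjusted p under 0.05, against 2.97% and 2.79% of all genes, while DESeq2 called 5 of them. The genes with the smallest p were the astrocyte genes Gfap, Slc1a3 and Slc1a2, with log2 fold changes of 0.95, 0.80 and 0.55, and the complement genes C1qb, C1qc and C1qa of microglia, with 1.17, 1.01 and 1.05. Not every gene of these lists was higher: the microglia genes Aif1 and P2ry12 had log2 fold changes of -0.39 and 0.13, and the astrocyte gene S100b one of -0.049. The summed level of the 10 oligodendrocyte-lineage genes was 103 to 143 CPM in SCFA libraries and 89.6 to 108 CPM in control libraries, which overlapped. The 10 neuronal genes summed to 2026 to 2253 CPM in SCFA libraries and 1885 to 2105 CPM in control libraries. The part of other cell types in the differences of the 10 genes was not tested.

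**Figure D5:**
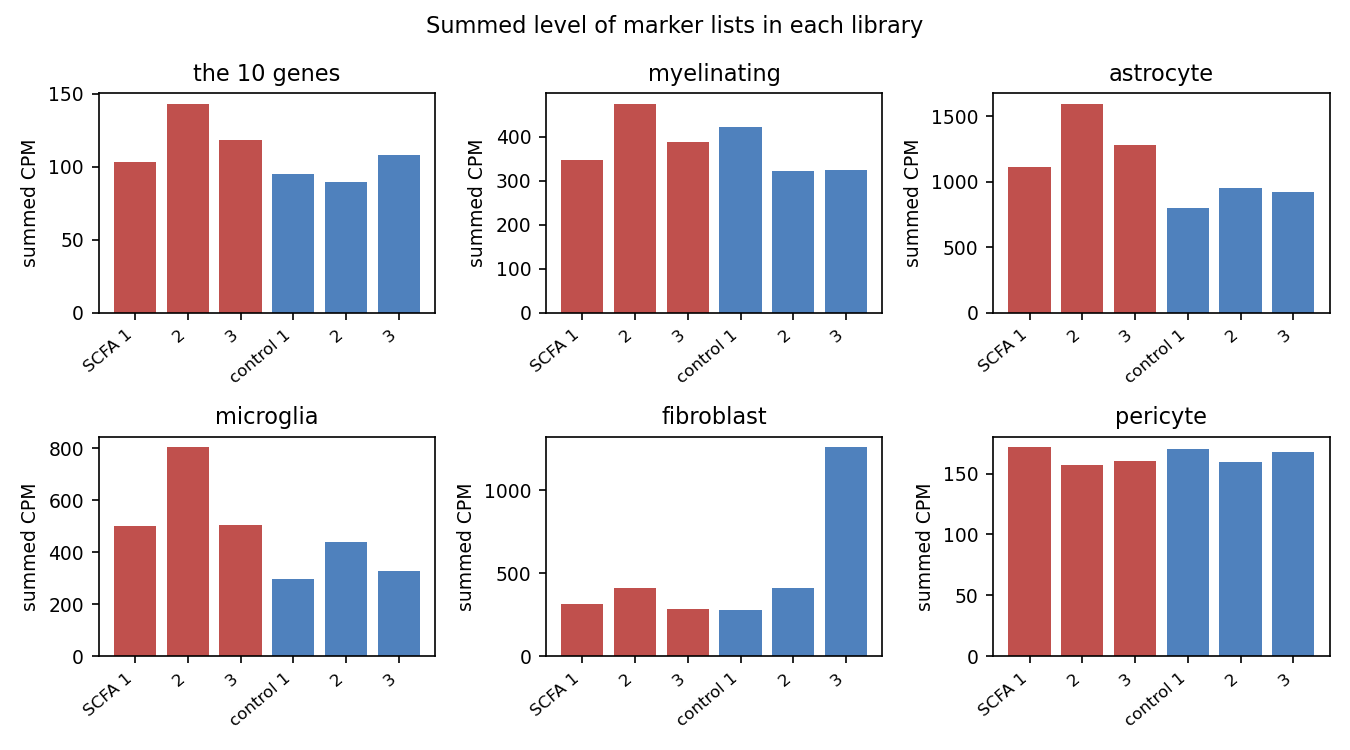
Summed CPM (vertical axes, from 0) of the 10 genes and of 5 marker lists in each library, with SCFA in red and control in blue. SCFA 2 is the highest library for the 10 genes, the myelinating, astrocyte and microglia lists, and control 3 for the fibroblast list.

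Among the fibroblast genes, the collagen genes Col1a1 and Col1a2 had log2 fold changes of -1.69 (SE 0.58) and -0.96 (SE 0.44), with 710 and 411 CPM in control 3 and at most 140 CPM in any other library. Dcn, the gene of the matrix protein decorin, measured -0.54 (SE 0.68). Of 10 fibroblast genes 10 were tested, of 10 pericyte genes 7, of 10 Schwann genes 3 and of 10 neuronal genes 9, and 0 passed in each (edgeR), with 2, 0, 1 and 0 lower and 0 higher at an unadjusted p under 0.05, against 2.79% and 2.97% of all genes. In the pericyte list, Anpep, Acta2 and Vtn had log2 fold changes of -0.58, -0.79 and 0.28. In the Schwann list, Cdh19, L1cam and Egr2 had log2 fold changes of -0.59, 0.26 and -0.32. In the neuronal list, Slc17a7, Gad1 and Tubb3 had log2 fold changes of 0.30, -0.24 and 0.22.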

How the data were processed

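RNA was measured in 6 cortex libraries, 3 per group, each taken as 1 mouse because the design text counts mice; p-values measure the spread between these libraries. The deposited values are raw counts per RefSeq transcript. The submitters' processing notes name featureCounts, CASAVA 1.8.2 and build mm10, with aligner, strand setting and treatment of shared reads not given in the sources used here. Among 34755 rows, 34424 (99.0%) matched a symbol in a RefSeq table of GRCm38.p6. A row without a symbol took 35.0% (SCFA 2) to 55.3% (control 2) of the counts of each library and stayed in the library sizes. After scaling by the TMM factors, the library size was lowest in control 2 (8676341) and highest in SCFA 2 (14544581).

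The test was run in R 4.3.3 with edgeR 4.0.16: filterByExpr (minimum count 10, minimum total 15), TMM, quasi-likelihood F test without covariates, two-sided, Benjamini-Hochberg threshold 0.05. The SE is the size of the log2 fold change divided by the square root of F. The method was tested on simulated counts with a fixed dispersion, with changes set only in genes of higher CPM. That test does not cover genes of low counts or libraries that stand apart. Log2 CPM used a prior count of 2. Intervals and floors of 3 counts cover counting error only.

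The 10 genes and all lists were chosen with earlier results of these data known. Named were the 10 genes, the 3 tested genes of smallest p per list, and the 5 genes nearest in pattern; other names were chosen after their values were seen. The alternatives were other scalings (DESeq2 1.42.0 size factors, upper quartile, total counts), no filter and a stricter one (CPM above 1 in 3 libraries), DESeq2, limma-voom (limma 3.58.1), robust dispersion, a replicate block, libraries left out, structural RNA removed, single transcript rows and an adjusted p under 0.1.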

Additional observations from a re-analysis of the deposited data

How the results depend on the processing

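Under 19 alternatives, 0 of the 10 genes passed. Their median log2 fold change lay between 0.20 (no filter, where Neu4 and Lhfpl3 enter) and 0.53 (total counts, which moved the median of all genes to 0.18), and between 0.28 and 0.63 when 1 library was left out. Of 151 values of single genes, 9 changed sign. Leaving out 1 library gave -0.45 to 0.88 for Cspg4, -0.074 to 0.27 for Sox8 and -0.25 to 0.43 for Bcas1, and without control 2 and SCFA 2 Sox8 was at -0.082 and Bcas1 at -0.097; the cause was not tested. Gpr17 and Sox10 stayed above 0 in all 19, from 0.53 to 1.23 and from 0.32 to 1.25, with adjusted p values from 0.571 and 0.589 upward, and Pdgfra from 0.64 to 2.56 in the 18 that tested it. Single transcript rows of Pdgfra had too few counts for the test.

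Over all genes, 30 were higher and 25 lower without a filter, 13 and 16 with DESeq2, 0 and 0 with limma-voom (421 and 384 at an unadjusted p under 0.05), and 14 and 11 without control 2 and SCFA 2; with 1 library left out, between 0 and 8 were higher and between 0 and 13 lower (at least 164 and 218 at an unadjusted p under 0.05). Of the genes in the 12 lists, 0 passed in the main test, 9 without a filter, 5 with DESeq2, 5 without control 2 and SCFA 2, and 0 to 2 with 1 library left out, and of these only Trf, without a filter, belongs to the lineage lists. The lists were put through the alternatives after seeing the data. The median of the newly formed list was 0.67 without a filter and 0.13 to 0.78 with 1 library left out, and that of the other precursor genes was 0.011 without control 2 and SCFA 2.

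With the replicate number as a block, 0 of the 10 genes passed, 10 genes were higher and 12 lower over all genes, and 4 list genes passed. Libraries of the same number showed no shared deviation from their group means (correlations -0.00206, 0.0101 and -0.00525), so the numbers were not taken to pair the libraries.

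Counts per library were low for several of the genes (12 in all for Neu4, 31 for Lhfpl3 and 75 for Pdgfra). The counting intervals of Pdgfra and Lhfpl3 leave out a ratio of 1, so depth is not the only limit there. The spread between libraries is wider, and Lhfpl3 was below the filter. For Lhfpl3, control 2 held 20 of the 31 counts and each other library 0 to 3. The intervals of Gpr17, Sox10, Olig1, Olig2 and Sox8 also leave out 1, and they too cover counting error only.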
